A study of Mus musculus with 4 samples.

Results

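The 9 genes described here encode growth factors that keep neurons alive and the receptors that receive them. They are Gdnf, its signalling receptor Ret and the co-receptors Gfra1 and Gfra2, the neurotrophin Bdnf with the neurotrophin receptors Ntrk2 and Ntrk3, and the pair Cdnf and Manf. They were taken by gene symbol, 9 of the 19938 genes that had a probe set of their own on the array, and each of the 9 had 1 such probe set. Their expression was measured in the ventral midbrain on 4 arrays, 2 from wild-type mice (WT) and 2 from Rev-erba knock-out mice (RKO), which lack REV-ERBα, the clock repressor encoded by Nr1d1. All mice were males of 10 to 15 weeks on a C57BL/6J background. They were held for more than 10 days under 12 h of light a day and then for 2 days in darkness, and tissue was taken on the next day. The hour of collection, the deleted part of the gene and the number of mice behind an array are not stated in the labels. The labels call the replicates biological. The p-values rest on the spread between these arrays, with each gene's variance drawn toward that of all tested genes.

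GDNF binds GFRα1, and the complex activates the receptor tyrosine kinase RET. Neurturin, a relative of GDNF, does the same mainly through GFRα2. BDNF activates TrkB, the product of Ntrk2, while neurotrophin-3 prefers TrkC, the product of Ntrk3. MANF and CDNF form a separate family of proteins that reside in the endoplasmic reticulum, can be secreted and protect dopamine neurons in experimental models. Dopamine neurons of the midbrain carry RET and GFRα1, and GDNF has been studied for decades as a survival factor for them.

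REV-ERBα binds DNA at the half-site AGGTCA, best where an A/T-rich stretch precedes it, which together make a ROR element. Promoter sequence was held for 5 of the 9 genes (Bdnf with 7 start sites, Gdnf with 2, and Cdnf, Gfra1 and Ntrk2 with 1 each), so 12 windows of the 250 bases before a start were searched on both strands. The half-site was found in 2 of the 12 windows, 1 of Gdnf and 1 of Bdnf, against 14.0% of 32851 windows of the same length. The ROR element was in 0 of the 12 windows and in 0.332% of all. The other 4 genes and sequence outside the windows were not searched. The stretches with the half-site are shown because they hold the letters bound by the deleted receptor within the windows searched. They are from RefSeq on GRCm38.p6, plus strand, in the direction of the gene, with the half-site in capitals: chr15:7809934-7809993 for Gdnf, with the half-site starting 87 bases before the start, and chr2:109692950-109693009 for Bdnf, with the half-site starting 50 bases before it.
Gdnf: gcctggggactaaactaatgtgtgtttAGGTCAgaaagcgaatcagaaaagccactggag
Bdnf: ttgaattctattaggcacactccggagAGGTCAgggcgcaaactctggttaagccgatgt

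Bdnf transcription is known for its dependence on neuronal activity through cAMP response elements. The full element TGACGTCA was in 0 of the 12 windows and in 1.55% of all. Its half-site TGACG was in 3 of the 12, 1 each of Bdnf, Gdnf and Cdnf, against 17.8% of all. The stretch of Bdnf, chr2:109692374-109692432 on the plus strand, holds it on the opposite strand, so that the capitals show its reverse complement.
Bdnf, upstream of another start: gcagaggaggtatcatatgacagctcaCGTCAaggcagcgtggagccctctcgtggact
The E-box CACGTG was in 0 of the 12 windows and in 6.02% of all. The stress element of the endoplasmic reticulum (CCAAT, 9 bases of any kind, CCACG) was in 0 of the 12 windows and in 0.113% of all. These are matches of letters in these windows and say nothing of binding.

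The check of the labels came first. Nr1d1, measured by 1 probe set, gave normalized intensities of 2897 and 3099 on the WT arrays and of 1259 and 1230.0 on the RKO arrays, and it fell by 1.27 on the log2 scale (SE 0.0641, limma adjusted p = 0.00486 over all probe sets with 1 symbol). Dopamine neuron markers were present, with all 18 of a list above the filter on dim probe sets, set at an intensity of 167. The median intensity over the 13587 tested genes was 540 in RKO replicate 1 and 559 in each of the other arrays. Over all probe sets, dim ones included, the median went the other way, at 240.1 in RKO replicate 1 and 235.7 to 236.8 in the others. Differences are given as RKO minus WT on the log2 scale, and a gene was called when its Benjamini-Hochberg adjusted p over all tested genes was under 0.05.

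None of the 9 genes was called. In limma 0 of the 8 that were bright enough to be tested passed, where 1.60% of all tested genes did, and 1 of the 8, Ret, had an unadjusted p under 0.05, where 12.8% of all did. Both RKO arrays lay above both WT arrays for 2 of the 8, Ret and Gdnf (17.2% of all tested genes), and below them for 0 of the 8 (24.6% of all). The median of the 8 differences was -0.00024, against -0.012 over all tested genes. The difference was under 5% in 7 of the 9 genes. The smallest difference called in any gene was 0.26 in size, so a change of a few percent could not have been called with 2 arrays a group. An exact permutation test of 2 against 2 arrays cannot give a p under 0.333 for a single gene, and it was not run.

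**Figure D1:**
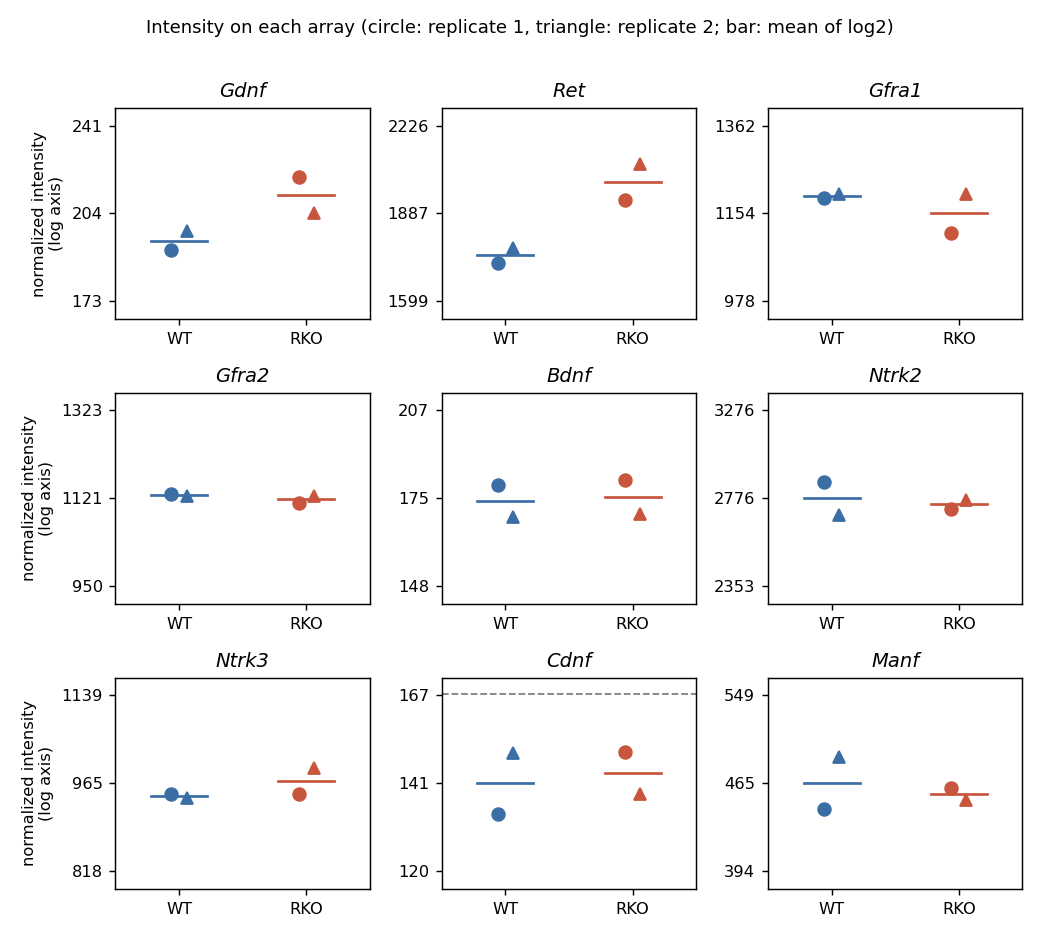
Normalized intensity (log axis spanning the same fold range in every panel) of the 9 genes on the 2 WT arrays (blue) and 2 RKO arrays (red), with circles for replicate 1, triangles for replicate 2 and bars for the group mean of log2 values; the dashed line in the Cdnf panel is the filter's intensity of 167. The groups are apart for Gdnf and Ret and overlap in the other 7 panels.

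Ret, the signalling receptor of the GDNF family, had the largest difference of the 9. The WT arrays read 1718 and 1769 and the RKO arrays 1937 and 2072. Both RKO arrays lay above both WT arrays, and the arrays of a group were 0.042 apart in WT and 0.097 apart in RKO on the log2 scale. The difference was 0.20 (1.15-fold, SE 0.0591, 95% interval 0.07 to 0.33), larger in size than 95.1% of the tested genes. It did not pass the test across all genes (limma adjusted p = 0.153). The call depended on the variance model: with an intensity trend in eBayes, which lets bright genes have a smaller prior variance, Ret passed (limma adjusted p = 0.00503). It passed in 2 of the 14 settings tried, over which the difference ran from 0.15 to 0.25. The other pass came with a crossed pairing of the replicates, chosen after seeing the data (limma adjusted p = 0.0458). That fit used 1 common variance for all genes. With no filter on dim probe sets the adjusted p of Ret was 0.409.

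The co-receptors that present the ligands to RET lay slightly below 0, without a call. Gfra1, the co-receptor for GDNF, read 1189 and 1197 in WT and 1113 and 1197 in RKO. The lower value came from RKO replicate 1 alone, and RKO replicate 2 read the same as WT replicate 2. Its difference was -0.048 (95% interval -0.18 to 0.083, limma adjusted p = 0.840). Gfra2, the co-receptor for neurturin, was the steadiest of the 9 across arrays, at 1130.0 and 1125 in WT and 1112 and 1127 in RKO. Its difference was -0.010 (95% interval -0.13 to 0.11, limma adjusted p = 0.969). Taken within each array, the log2 ratio of Ret to Gfra1, set to a mean of 0 in WT, was -0.016 and 0.016 on the WT arrays, and 0.25 and 0.24 on the RKO arrays. The ratio of Ret to Gfra2 was likewise higher on both RKO arrays, by 0.17 and 0.25. These ratios rest on the same Ret values and were not tested apart.

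Gdnf, the ligand, was dim but above the filter. The WT arrays gave 190.4 and 198 and the RKO arrays 219 and 204. Each RKO value exceeded each WT value, by a margin between the nearest arrays that was smaller than the gap between the RKO arrays. Its difference was 0.12 (1.09-fold, SE 0.0596, 95% interval -0.0074 to 0.26, limma adjusted p = 0.425). Without RKO replicate 1 the difference was 0.075, and without RKO replicate 2 it was 0.17.

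**Figure D2:**
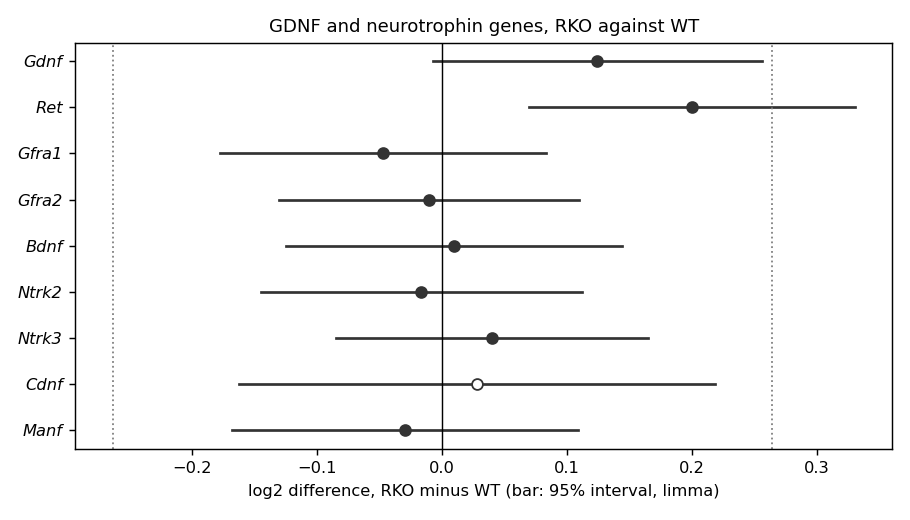
Log2 difference RKO minus WT (points) with limma's 95% interval (bars) for the 9 genes; the open point of Cdnf, below the filter, comes from the fit with no filter, and dotted lines mark 0.26, the smallest size called in any gene. The interval of Ret alone excludes 0, and those of the other 8 hold it.

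The neurotrophin ligand and the receptors had overlapping groups and differences within 0.04 of 0. Bdnf was near the lower limit of the tested range, at 180 and 169 in WT and 181 and 170.1 in RKO. In both groups replicate 1 read higher than replicate 2, by 0.087 and 0.092, which was more than the difference between the groups of 0.0098 (95% interval -0.12 to 0.14, limma adjusted p = 0.976). Ntrk2, which encodes TrkB, read 2862 and 2693 in WT and 2720 and 2769 in RKO, the RKO values lying between the WT values (difference -0.016, 95% interval -0.14 to 0.11, adjusted p = 0.953). Ntrk2 makes a full-length kinase in neurons and a truncated receptor that is abundant in astrocytes, and 1 probe set gives 1 value that cannot tell the forms apart. Beside it, 2 of 13 tested astrocyte markers, Gfap, a filament protein, and Aldh1l1, a folate enzyme, fell, 0 rose and 11 did not pass. Over all tested genes 1.60% were called. In 6 of the 13 both RKO arrays lay above both WT arrays (17.2% of all tested genes) and in 6 below (24.6% of all). Gja1, a gap junction protein, was highest (0.22, limma adjusted p = 0.0848). It was called with a 60th percentile filter and with the intensity trend. The summed intensity of the list was 43857 to 44104 in WT and 44075 to 44463 in RKO. Bright genes weigh most in that sum: on WT replicate 1 Aldoc read 10350, Ndrg2 9971 and Gfap 1119. Ntrk3, which encodes TrkC, read 946 and 938 in WT and 946 and 992 in RKO, and only RKO replicate 2 stood off the others (difference 0.040, 95% interval -0.085 to 0.16, adjusted p = 0.864).

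Manf and Cdnf showed no separation of the groups. Manf read 443 and 488 in WT and 461 and 451 in RKO. Both RKO values lay between the WT values, which were 0.14 apart on the log2 scale, and the difference was -0.030 (95% interval -0.17 to 0.11, limma adjusted p = 0.915). Cdnf read 133 and 149.6 in WT and 149.7 and 138 in RKO. All 4 values were under the filter's 167, so Cdnf was left out of the test over bright genes. In the fit with no filter its difference was 0.028 (95% interval -0.16 to 0.22, adjusted p = 0.944). The WT arrays differed by 0.17 and the RKO arrays by 0.11 in the opposite order of replicates, the widest replicate gaps of the 9 genes.

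For the 7 tested genes other than Ret, the 95% intervals together spanned 0.884-fold to 1.19-fold. Differences beyond that span lie outside the interval of every one of the 7, as measured in whole ventral midbrain. In such tissue fewer cells of a type and less RNA per cell cannot be told apart.

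Ret is made by dopamine neurons, so its values were set beside the 18 tested markers of these cells. Of these markers 8 rose, 0 fell and 10 did not pass, where 1.60% of all tested genes were called. The list median was 0.26. The list holds genes already known to differ in these arrays and is no independent evidence. The 8 were Th, Slc18a2, Chrnb3, Slc10a4, Ddc, Slc6a3, Chrna6 and Drd2. Th, the rate-limiting enzyme of dopamine synthesis, read 2168 and 2248 in WT and 3620 and 3664 in RKO (difference 0.72, 95% interval 0.60 to 0.84, limma adjusted p = 7.45e-05). Slc6a3, the dopamine transporter, read 4289 and 4521 in WT and 5489 and 5601 in RKO (difference 0.33, adjusted p = 0.0141). Of the 18 markers, 11 had a larger difference than Ret and 7 a smaller one. The nearest to Ret were the transcription factors Pitx3 (0.20) and Nr4a2 (0.18), which did not pass. With the intensity trend, under which Ret passed, Nr4a2 passed as well (limma adjusted p = 0.0436) and Pitx3 did not. Aldh1a1, the retinaldehyde dehydrogenase of ventral dopamine neurons, was the 1 marker below 0 (-0.10, not passing). Relative to Th, Ret was lower on both RKO arrays, by -0.56 and -0.48 on the log2 scale with WT set to 0, and relative to the mean of the 18 markers it stood at -0.077 and -0.018, against -0.0095 and 0.0095 in WT.

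The number of dopamine markers called depended on the setting. It was 1 of the 18 with no filter, 5 with median centring, 9 with a 60th percentile filter and 11 with the intensity trend. Sncg was gained with that filter and with the trend, and En1 and Nr4a2 with the trend. The number fell with any 1 array left out. Th kept its call in each of the 14 settings, and Slc6a3 lost its call with no filter and without WT replicate 1, RKO replicate 1 or RKO replicate 2. The summed intensity of the 18 markers was 21105 to 21622 in WT and 25576 to 26456 in RKO. Markers of neighbouring tissue differed on the same arrays, where 1.60% of all tested genes were called. Of 13 tested leptomeningeal genes 8 fell (Ogn, Dcn, Slc6a13, Slc22a6, Aldh1a2, Foxc1, Islr and Slc13a4), 0 rose and 5 did not pass. The 13 differences had a median of -0.32. Summed over the 13, intensity was 12570 to 12908 in WT and 10283 to 10339 in RKO. Much of that sum came from 1 gene that was not called, Ptgds. It read 6951 and 6496 in WT and 5605 and 5648 in RKO. On both RKO arrays 10 of the 13 read below both WT arrays (24.6% of all tested genes did) and 3 above them (17.2% of all). Those 3 were the collagen genes Col1a1 (0.13), Col1a2 (0.069) and Col3a1 (0.0805), none of them called. Of 14 tested thalamic genes Rora, Prkch and Ramp3 fell, 0 rose and 11 did not pass. An unadjusted p under 0.05 was found in 11 of the 14 (12.8% of all tested genes). Both RKO arrays lay below both WT arrays in 12 (24.6% of all) and above them in 1 (17.2% of all). The list median was -0.19, and the summed intensity was 23731 to 24306 in WT and 21457 to 21851 in RKO. Rgs16, a regulator of G protein signalling, went the other way (0.31, limma adjusted p = 0.0567) and was called with the replicate number as a block (adjusted p = 0.0221), with a 60th percentile filter, with the intensity trend, with log2(value + 16) and without WT replicate 2. The leptomeningeal count was 3 with no filter and 5 with median centring or without either RKO array, and the count of thalamic genes called lower was 6 with a 60th percentile filter and 9 with the intensity trend. Rora lost its call with no filter and without RKO replicate 1. The part of these shifts in tissue markers in the value of Ret was not tested.

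Genes of other cells and tissues were set beside Ret as well. All 12 tested oligodendrocyte genes lay lower on both RKO arrays than on both WT arrays (24.6% of all tested genes did), with a list median of -0.10 and a summed intensity of 47312 to 48663 in WT and 44728 to 44915 in RKO. Opalin fell and 11 did not pass. The part of this shift in the values of the 9 genes was not tested. Slc17a7 fell among 13 genes of hippocampus and cortex (list median 0.00079), and of 10 genes of the lateral hypothalamus Pmch and Hcrt fell and Cartpt rose (list median 0.038). In limma 0 of 11 microglial genes (1 at an unadjusted p under 0.05, median -0.065) and 0 of 13 endothelial and pericyte genes (4 at that p, median -0.093) passed, though Vtn (-0.23) was called with the 60th percentile filter and the intensity trend and Cldn5 (0.19) with the trend. The astrocyte median was 0.0054. With no filter on dim probe sets Pmch kept its call, while Opalin, Slc17a7, Hcrt, Cartpt, Gfap and Aldh1l1 lost theirs. Leaving out 1 array also ended the call of Opalin (each array but WT replicate 2), Slc17a7 (WT replicate 2 or RKO replicate 1), Aldh1l1 (WT replicate 1 or RKO replicate 1) and Hcrt (RKO replicate 2). With the intensity trend Mag, Prox1 and Camk2a were called lower as well, and with a 60th percentile filter Prox1 was called lower and Tacr3 higher.

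By the size of the root mean square difference between log2 values centred on their mean over the 4 arrays, the tested genes most like Ret were Olfr239, an olfactory receptor gene (0.0098), Amot, which encodes angiomotin (0.012), and Rpp25, a subunit of RNase P (0.012). Rpp25 read 955 and 1003 in WT and 1100.0 and 1174 in RKO. Over the 4 arrays 326 of the 13587 tested genes lay within 0.05 of Ret, so the pattern was not particular to it.

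The remaining members of the GDNF family showed no calls. Of 9 listed ligands and receptors 6 were tested, 0 passed by limma, and their median was 0.074. An unadjusted p under 0.05 was found in 1 of the 6, against 12.8% of all tested genes. Nrtn, the ligand neurturin, read 258 and 302 in WT and 318 and 307 in RKO (0.16, limma adjusted p = 0.387), a difference smaller than the gap of 0.22 between the WT arrays. Gfra3, the co-receptor for artemin, stood at 0.13 (adjusted p = 0.559) with overlapping groups. Artn and Gfral lay below the filter.

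Among other neurotrophins and receptors 7 of 11 listed were tested, 0 passed by limma, and the median was -0.044. An unadjusted p under 0.05 was found in 3 of the 7, against 12.8% of all tested genes. The 2 largest differences were those of sortilin-related receptors, a family of sorting receptors for neurotrophins and their precursors. Sorcs1 read 794 and 852 in WT and 690.3 and 734 in RKO (-0.21, 95% interval -0.34 to -0.071, limma adjusted p = 0.156). Sorcs3 read 912 and 970 in WT and 811 and 850.3 in RKO (-0.18, adjusted p = 0.214). In both genes each RKO array lay below each WT array, without passing the test, though Sorcs1 passed with the intensity trend (adjusted p = 0.0327). Of 15 genes that cleave proneurotrophins or control that cleavage 9 were tested and 0 passed (1 at an unadjusted p under 0.05, median -0.0034). Plat, the tissue plasminogen activator, stood at 0.17 (adjusted p = 0.230), and Pcsk1, a prohormone convertase, at -0.11 (adjusted p = 0.478).

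**Figure D3:**
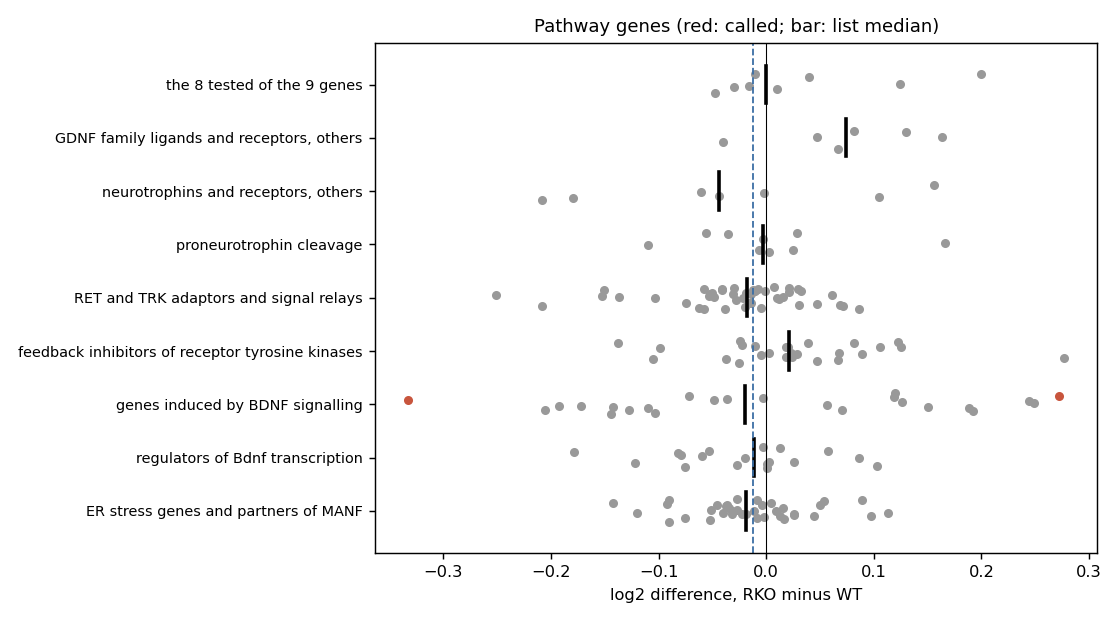
Log2 difference RKO minus WT of each tested gene (points, red where called) in the 9 genes and in 8 lists around them, with the list median as a black bar and the median of all tested genes as a blue dashed line. The called genes are Npy and Per1, both among genes that BDNF signalling can induce.

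Among the adaptors and feedback inhibitors downstream of the receptors no call was made in the reported fit. Of 46 tested adaptors and signal relays of RET and TRK receptors 0 passed by limma, where 1.60% of all tested genes did. An unadjusted p under 0.05 was found in 5 of the 46 (12.8% of all tested genes), and the median was -0.018. Shc3, a neuronal adaptor that binds activated TRK receptors, came closest, at 2298 and 2242 in WT and 1929 and 1886 in RKO (-0.25, 95% interval -0.37 to -0.13, adjusted p = 0.0540). Akt2, a survival kinase, stood at -0.21 (adjusted p = 0.130). These zero calls depended on the setting: Shc3 and Akt2 were called lower with a 60th percentile filter, Shc3 with log2(value + 16), and Shc3, Akt2 and Camk2a with the intensity trend. Of 26 tested feedback inhibitors of receptor tyrosine kinases 0 passed (3 at that p, median 0.021). Dusp1, a phosphatase that switches off MAP kinases, read 1021 and 1060 in WT and 1180 and 1346 in RKO (0.28, adjusted p = 0.0856), and Dusp3 stood at -0.14 (adjusted p = 0.345). Dusp1 was called with the replicate number as a block (adjusted p = 0.0414), with a 60th percentile filter and with the intensity trend.

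Genes that BDNF signalling can induce went both ways. Of 24 tested, Per1 rose (0.27, SE 0.0577, limma adjusted p = 0.0439), Npy fell (-0.33, SE 0.0706, adjusted p = 0.0439) and 22 missed the threshold. Over all tested genes 1.60% were called. An unadjusted p under 0.05 was found in 12 of the 24 (12.8% of all tested genes), and the median was -0.020. Both RKO arrays lay above both WT arrays in 10 of the 24 (17.2% of all) and below them in 9 (24.6%). Per1, a clock gene, read 590 and 596 in WT and 695 and 738 in RKO, and Npy, the neuropeptide Y precursor, 433 and 494 in WT and 356 and 379 in RKO. Neither gene is specific to BDNF, and Per1 is also part of the clock itself. Both calls were lost with no filter on dim probe sets, with median centring and without either RKO array. That of Per1 was lost without either WT array as well, and that of Npy without WT replicate 2 and with quantile normalization. With the intensity trend Egr1 was called higher and Rasgrp1 and Vgf lower as well, and Egr1 also without WT replicate 2.

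In the fit reported here no call was made among the genes that control Bdnf transcription or those that share the stress response of Manf. Of 18 tested regulators of Bdnf transcription 0 passed by limma (1 at an unadjusted p under 0.05, against 12.8% of all tested genes, median -0.012). The 2 largest differences were those of Mef2a, an activity-dependent transcription factor (-0.18, adjusted p = 0.187), and Crtc2, a coactivator of CREB (-0.12, adjusted p = 0.451). Mef2a was called with the intensity trend (adjusted p = 0.00282). Of 37 tested stress genes of the endoplasmic reticulum and partners of MANF 0 passed and 0 had an unadjusted p under 0.05, with a median of -0.019 and a range of -0.14 to 0.11. The ends of that range below 0 were the co-chaperones Dnajc10 (-0.14, adjusted p = 0.397) and Dnajb11 (-0.12, adjusted p = 0.397).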

How the data were processed

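Biotinylated cRNA from 1 µg of total RNA was hybridised to Affymetrix mouse gene arrays, per the labels' protocols. The deposited table gave normalized intensities on a linear scale for 35556 probe sets. Its makers used GCOS and RMA, per the submitters' processing notes, which state no settings. RMA usually equalises distributions between arrays, which removes shifts common to most genes. The medians of the deposited values still differed between arrays, as given with the check of the labels. Here log2 intensities were compared with limma 3.58.1 (lmFit, then eBayes; R 4.3.3; 2 residual and 8.73 prior degrees of freedom). Probe sets with 1 gene symbol in the platform annotation were used, the brightest per gene. Genes with a mean under the 40th percentile of all probe sets were left out, which kept 13587. The script was tested on simulated data. The number of arrays limits precision. The members and lists were chosen with earlier results of these data known. From each list the called genes, or otherwise the 2 with the largest differences, are named; the closest patterns are given for the tested member of lowest p. Listed genes without a probe set of their own in the annotation were not analysed here. Labels do not tie replicate numbers between groups. Lists cover the pathway groups and tissue markers given in the text. Promoters are RefSeq's, on GRCm38.p6; the build of the array annotation was not stated.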

Additional observations from a re-analysis of the deposited data

How the results depend on the processing

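The count of called genes was 218 in all, and 31 with no filter, 106 with median centring over tested genes, 499 with an intensity trend in eBayes and 73 to 293 with 1 array left out, 73 without RKO replicate 1, 99 without RKO replicate 2. Centring on the median of all probe sets, chosen after seeing the data, gave 455. Of the 9 genes 0 were called in these settings, except 1, Ret, with the intensity trend. With the replicate number as a block, 259 genes and 0 of the 9 were called, and of the listed genes the block changed the calls of Dusp1 and Rgs16 alone; deviations of same-numbered arrays correlated at -0.114 over genes, and the crossed pairing, chosen after seeing the data, called 696 genes and 1 of the 9, again Ret. The fits with centring on all probe sets and with the crossed pairing used 1 common variance for all genes, so their counts do not show the effect of centring or pairing alone; of the listed genes, these fits alone called Fos and En2 (both fits) and Pitx3 (crossed pairing). Uncalled differences near 0 changed sign: Gfra2 to 0.014 with median centring and 0.018 with quantile normalization, Ntrk2 to 0.0082 and 0.0061, and Bdnf to -0.019 with quantile normalization. Leaving out 1 array gave -0.0998 to 0.0049 for Gfra1, -0.036 to 0.056 for Bdnf, -0.061 to 0.028 for Ntrk2 and -0.0998 to 0.041 for Manf. Ret, Gdnf and Ntrk3 stayed above 0 in every setting in which they were tested. Scaling moved the median of all tested genes by less than 0.1. Precision is limited by 2 arrays a group.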
